A study of Homo sapiens with 6 samples.

Results

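The genes described here are 10 of the 18806 gene symbols in the deposited table: the basic leucine zipper (bZIP) transcription factors ATF3, ATF4, ATF5, ATF6, CEBPA, CEBPB, CEBPD, CEBPG and DDIT3 (CHOP), and the pseudokinase TRIB3. They were taken by symbol, and all 10 were among the 10911 genes that reached a mean of 1 TPM and were tested. TPM, the unit of the deposited values, is a length-scaled share of all transcripts in a library. The cells were Mono-Mac-6, established from a human monocytic leukaemia and carrying the MLL-AF9 fusion. All 6 libraries came from a single Cas9-expressing clone that was transduced with a lentiviral guide RNA, kept under hygromycin B (200 µg/ml) together with blasticidin (10 µg/ml), and collected some 8 to 10 days after the virus was added. The 3 groups, of 2 libraries each, carried the control guide sgNS or one of the METTL1 guides, named sgMETTL1.3 and sgMETTL1.6, so the controls shared the clone, the virus and both drugs with the other groups. METTL1 is a methyltransferase that, with its partner WDR4, methylates guanosine at its N7 position in a subset of tRNAs. Whether the 2 replicates of a group came from separate cultures is not stated in the labels, and p-values therefore measure only how far these libraries spread, possibly for technical reasons.

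When the initiation factor eIF2 is phosphorylated by one of its kinases, most translation slows while the ATF4 reading frame is translated through upstream open reading frames in its leader. This is the integrated stress response. ATF4 protein pairs with C/EBP proteins on composite DNA elements and switches on amino acid synthesis, amino acid transport and tRNA charging genes, together with the further regulators ATF3, ATF5, DDIT3 and TRIB3. ATF6 belongs to a different arm, in which stress of the endoplasmic reticulum frees a membrane-bound factor to enter the nucleus. In the myeloid lineage, C/EBPα drives granulocytic and monocytic differentiation, while C/EBPβ and C/EBPδ act in inflammation and emergency myelopoiesis. C/EBPγ lacks the activation domains of its relatives and CHOP has an altered DNA-binding region, and both act largely as partners of other bZIP proteins.

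METTL1 mRNA, the targeted transcript, was at 15.4 and 13.9 TPM in the sgNS libraries, at 18.3 and 16.6 TPM in those labelled sgMETTL1.3, and at 11.2 and 11.7 TPM in those labelled sgMETTL1.6. It was therefore not lower than control in the libraries labelled sgMETTL1.3, where its log2 change was 0.24 (limma, adjusted p = 0.0111). That call was lost when no filter on level was used (adjusted p = 0.0568) and when either sgMETTL1.3 replicate 1 or sgNS replicate 2 was left out (0.116 for both). It was lower in those labelled sgMETTL1.6 (-0.33, adjusted p = 0.00167). Gene-level TPM reads neither a Cas9 cut nor the protein, and every direction below is drawn from the libraries as labelled. Of 13 monocytic leukaemia markers in the table, 10 were at 1 TPM or more in each library, and CD14, CSF1R and CD4 were under 1 TPM in each. The summed level of those 13 markers was 13490 to 14040 TPM in the controls and 11330 to 12960 TPM in the guide libraries, most of it LYZ, which was at 10839 to 11419 TPM and 9205.5 to 10827 TPM. Of the 10 that were tested over both guides, 7 fell and 1, SPI1, rose (log2 change 0.20), with a median log2 change of -0.34. FCGR1A (-0.84), PTPRC (-0.52) and FLT3 (-0.40) were among those that fell, named after their values were seen. Of 26 markers of other cell types, 10 to 15 per library were listed at 0, CD3E, MS4A1, HBB and CDH5 in all 6, and 4 to 6 reached 1 TPM. Their summed level was 138 to 147 TPM in the controls and 109 to 116 TPM in the guide libraries, most of it NKG7, which was at 113 to 123 TPM and 88.6 to 96.4 TPM. Of the 5 of them that were tested, 4 fell and 1, HBA1, rose, from 1.34 and 0 TPM to between 1.62 and 2.67 TPM (log2 change 1.05, adjusted p = 0.00226), with a near-identical gene copy that makes its value uncertain. The part of either marker list in the results below was not tested.

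With both METTL1 guides, 9 of the 10 factors were lower than in the control libraries and 1, CEBPA, was higher. The fall was deepest for TRIB3, to 20.2% of the control mean, followed by CEBPB (26.7%), DDIT3 (40.1%), ATF3 (42.2%), ATF5 (50.0%) and CEBPG (51.2%). ATF4 itself kept 66.8% of its control level, ATF6 84.9% and CEBPD 88.7%, while CEBPA stood at 123%. The median log2 change of the 10 was -0.99, against 0.02 over all genes tested, of which the middle 90% lay between -0.52 and 0.43. Passing the test (limma, Benjamini-Hochberg adjusted p under 0.05) was common in this comparison: 59.4% of all genes tested passed, 26.8% lower and 32.6% higher. A log2 change below -1 was less common: 146 of the 10911 genes had one, among them 5 of the 10 factors. In cell populations of this kind, fewer cells expressing a gene and less RNA per cell cannot be told apart.

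**Figure D1:**
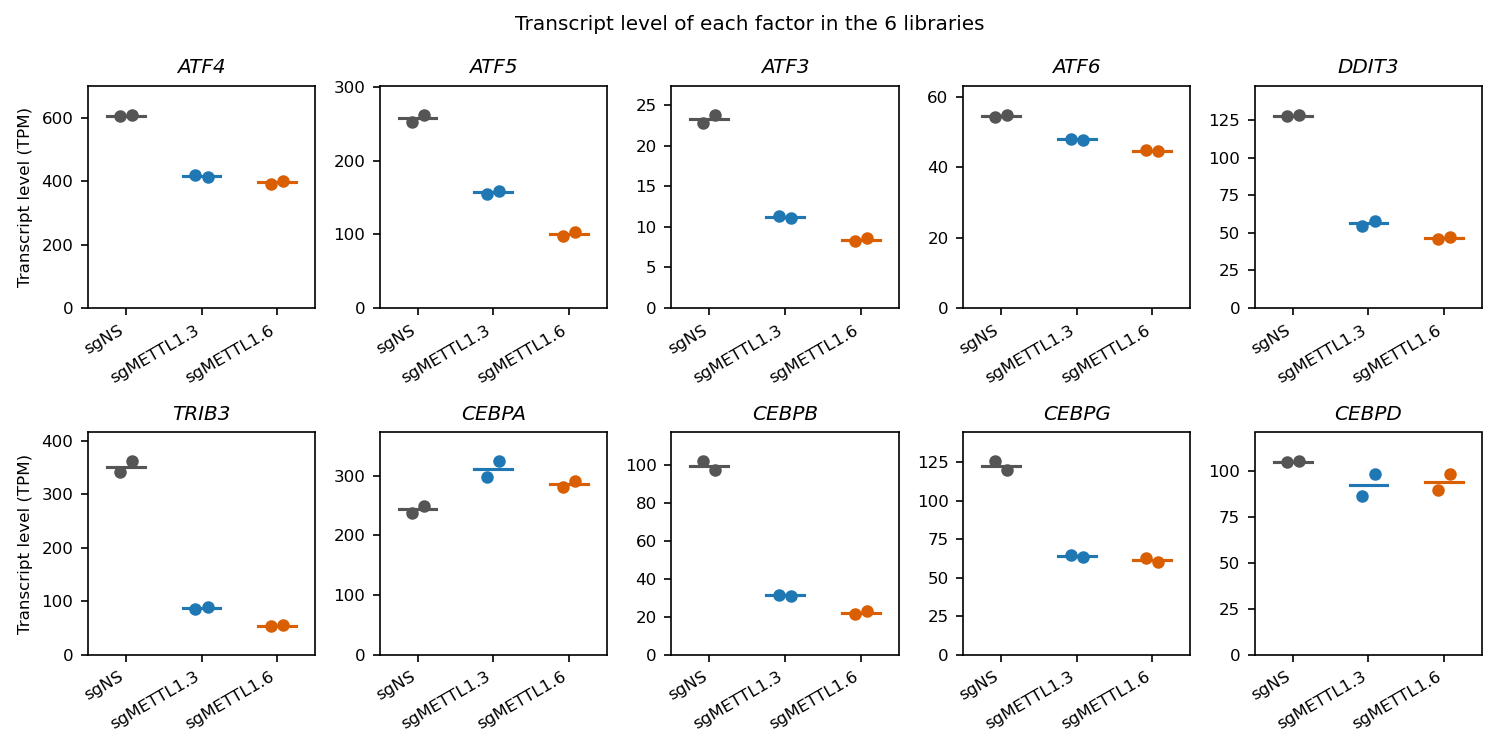
Transcript level in TPM (vertical axis, linear, from 0) of each of the 10 factors in the 6 libraries, 1 point per library, grouped by guide RNA along the horizontal axis, with a short line at the mean of 2 libraries. For every factor the 4 METTL1 guide libraries lie on one side of both sgNS libraries, above them for CEBPA and below them for the other 9. How common such a separation is among all genes tested was not counted. Over both guides, 59.4% of them passed the test.

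The same split held for each guide. In the libraries labelled sgMETTL1.3, 9 factors passed the test lower and 1 higher, with a median log2 change of -0.82; 58.5% of all genes passed there, 24.2% lower and 34.3% higher. In those labelled sgMETTL1.6 it was again 9 lower and 1 higher, with a median of -1.17; 51% of all genes passed, 25.3% lower and 25.7% higher. Both comparisons used the same 2 control libraries and are not independent of each other.

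ATF4, the factor at the head of the response, has the gene ID ENSG00000128272.14 and lies on chromosome 22 (39519695 to 39522685, plus strand, GRCh38). It was at 604 and 608 TPM in the sgNS libraries, at 418 and 411 TPM in those labelled sgMETTL1.3 and at 389.9 and 401 TPM in those labelled sgMETTL1.6. All 4 guide libraries were below both controls, and the guides lay close to each other. The log2 change over both guides was -0.58 ± 0.026 (SE, limma adjusted p = 9.49e-10). It was the most abundant of the 10 transcripts in every group. Its principal transcript in GENCODE 29 has a leader of 882 bases with 7 AUG triplets before the coding start, the most of the 10. TPM measures the mRNA, whereas the control described above acts on its translation, which was not measured.

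ATF5, a close relative of ATF4 whose mRNA is also translated through upstream reading frames (ENSG00000169136.10, chromosome 19, 49928702 to 49933935, plus strand), was at 253 and 262 TPM in the controls. It was at 155 and 159 TPM in the libraries labelled sgMETTL1.3 and at 98.0 and 104 TPM in those labelled sgMETTL1.6. No 2 of the groups overlapped, with sgMETTL1.6 lowest. The log2 change was -0.71 with sgMETTL1.3 and -1.34 with sgMETTL1.6, and -1.03 ± 0.034 over both (SE, limma adjusted p = 4.49e-11). Part of ATF5 overlaps IL4I1 and NUP62 on the opposite strand, by 838 and 1062 bases. Whether the counting used strand is not given in the sources used here, so reads from the shared bases could fall to either gene. IL4I1 had a log2 change of -0.30 (adjusted p = 0.0289) and NUP62 one of 0.18 (adjusted p = 0.000537). The IL4I1 call was lost under 7 of 15 alternatives, with adjusted p from 0.0651 to 0.146: without sgNS replicate 1, sgNS replicate 2, sgMETTL1.3 replicate 1 or sgMETTL1.6 replicate 1, with no filter on low values, with quantile normalization and without the variance trend. Its value was -0.19 without sgMETTL1.6 replicate 1.

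ATF3, an early stress-induced factor that forms homodimers and dimers with JUN (ENSG00000162772.16, chromosome 1, 212565334 to 212620777, plus strand), was the least abundant of the 10. Its levels were 22.7 and 23.8 TPM in the controls, 11.3 and 11.1 TPM in the libraries labelled sgMETTL1.3, and 8.22 and 8.59 TPM in those labelled sgMETTL1.6. Again no groups overlapped, and the order was the same as for ATF5. The log2 change over both guides was -1.18 ± 0.054 (SE, limma adjusted p = 1.1e-09).

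ATF6, the membrane-anchored sensor of the endoplasmic reticulum (ENSG00000118217.5, chromosome 1, 161766294 to 161964070, plus strand), fell by a smaller step. It was at 54.3 and 54.8 TPM in the controls, at 48.0 and 47.8 TPM in the libraries labelled sgMETTL1.3 and at 44.9 and 44.4 TPM in those labelled sgMETTL1.6. No guide library reached a control, but the log2 change was only -0.23 ± 0.037 (SE, limma adjusted p = 0.000141), which ranked 1800 from the lowest of 10911. Its leader, of 67 bases, is the shortest of the 10 and has no AUG before the coding start.

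DDIT3, which encodes CHOP, the dominant partner that redirects C/EBP proteins and is linked to stress-induced cell death (ENSG00000175197.12, chromosome 12, 57516588 to 57521737, minus strand), fell too. It was at 128 TPM in each sgNS library, at 54.7 and 57.8 TPM in those labelled sgMETTL1.3, and at 45.8 and 47.2 TPM in those labelled sgMETTL1.6. Again no groups overlapped. The log2 change was -1.31 ± 0.038 (SE, limma adjusted p = 1.01e-11). In every control library ATF4 exceeded DDIT3 by a ratio of 4.74, and in the guide libraries by 7.12 to 8.51. DDIT3 lies 246.7 kb from METTL1 on the same chromosome, with 12 protein-coding genes between them. It overlaps MARS, the methionyl-tRNA synthetase, by 982 bases and MBD6 by 1028 bases, both on the opposite strand. As for ATF5, whether the counting used strand is not given, so reads from the shared bases could fall to either gene. MARS had a log2 change of -1.10 (adjusted p = 3.89e-12) and MBD6 one of -0.56 (adjusted p = 1.84e-07). The stretch before the DDIT3 start that holds no annotated GENCODE 29 exon is shown because CHOP is a common readout of this response. The stretch held no exact match to the motifs searched below, while near matches and sites farther upstream were not searched. It covers 192 bases inside the gene as GENCODE 29 draws it, before the RefSeq start used (chr12:57520518-57520709, minus strand, GRCh38.p14):
DDIT3: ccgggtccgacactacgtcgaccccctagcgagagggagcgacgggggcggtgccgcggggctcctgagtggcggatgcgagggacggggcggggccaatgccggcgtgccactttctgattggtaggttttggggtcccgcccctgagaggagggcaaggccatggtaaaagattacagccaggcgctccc

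TRIB3, a catalytically weak pseudokinase that ATF4 and CHOP switch on and that binds and restrains ATF4 and AKT (ENSG00000101255.10, chromosome 20, 362835 to 397559, plus strand), had the lowest log2 change of the 10. It was at 342 and 361 TPM in the controls, at 86.0 and 89.3 TPM in the libraries labelled sgMETTL1.3 and at 52.7 and 55.9 TPM in those labelled sgMETTL1.6. Control levels were 4.01-fold above the first guide and 6.47-fold above the second, and the groups did not overlap. The log2 change over both guides was -2.33 ± 0.038 (SE, limma adjusted p = 4.27e-14), which ranked 16 from the lowest of 10911. TRIB3 was the second most abundant of the 10 in the controls. With sgMETTL1.6 it was the sixth. TRIB3 per ATF4 transcript was 0.566 and 0.593 in the controls, 0.206 and 0.217 with sgMETTL1.3, and 0.135 and 0.139 with sgMETTL1.6.

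**Figure D2:**
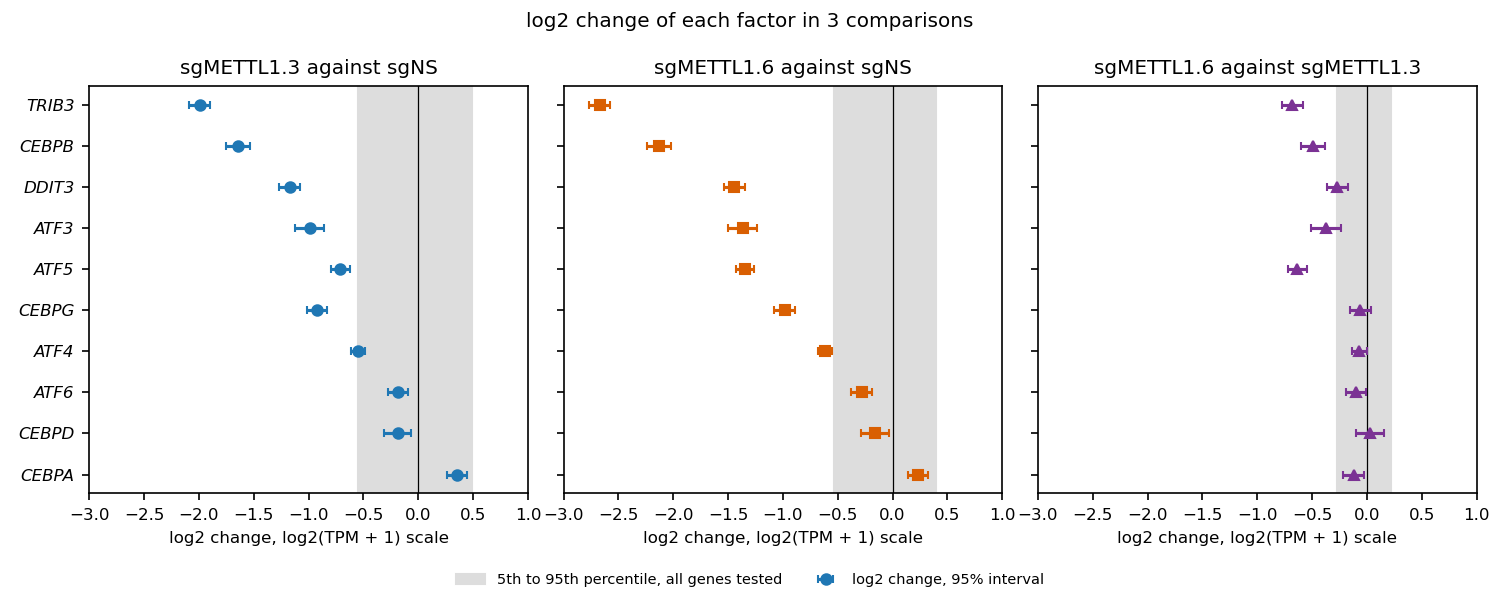
The log2 change of each factor on the log2(TPM + 1) scale (horizontal axis) in 3 comparisons, 1 panel each; points are the fitted changes, lines their 95% confidence intervals, and the grey band spans percentiles 5 to 95 of all genes tested. TRIB3 and CEBPB lie farthest to the left against the controls, only CEBPA lies to the right of 0 there, and 5 factors passed the test lower with sgMETTL1.6 than with sgMETTL1.3.

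Among the C/EBP genes, CEBPB (ENSG00000172216.5, chromosome 20, 50190734 to 50192689, plus strand) had the lowest log2 change. It was at 102 and 97.4 TPM in the controls, at 31.6 and 30.9 TPM in the libraries labelled sgMETTL1.3 and at 21.2 and 22.7 TPM in those labelled sgMETTL1.6. Again no groups overlapped, and the controls were 3.19-fold and 4.53-fold above the guides. The log2 change was -1.89 ± 0.044 (SE, limma adjusted p = 1.05e-12), which ranked 33 from the lowest of 10911. An antisense gene overlaps CEBPB, and 2 overlap CEBPA in GENCODE 29, and none of these had a row in the table.

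CEBPG, the heterodimer partner of ATF4 in the induction of amino acid genes (ENSG00000153879.8, chromosome 19, 33373330 to 33382686, plus strand), was at 126 and 119.95 TPM in the controls. It was at 64.7 and 63.5 TPM in the libraries labelled sgMETTL1.3 and at 62.5 and 60.5 TPM in those labelled sgMETTL1.6. All 4 guide libraries lay near 1 level, well below the controls. The log2 change was -0.96 ± 0.037 (SE, limma adjusted p = 1.86e-10).

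CEBPA, the myeloid differentiation factor that is often mutated in acute myeloid leukaemia (ENSG00000245848.2, chromosome 19, 33299934 to 33302564, minus strand), rose. It was at 237 and 249.9 TPM in the controls, at 299 and 324 TPM in the libraries labelled sgMETTL1.3 and at 281 and 291 TPM in those labelled sgMETTL1.6. Every guide library was above both controls. The log2 change was 0.29 ± 0.037 (SE, limma adjusted p = 1.83e-05). CEBPA and CEBPG lie 70.8 kb apart on chromosome 19 with no protein-coding gene between them, and they went opposite ways. The value of CEBPA stayed between 0.25 and 0.33 and past the test under every alternative setting tried.

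CEBPD (ENSG00000221869.4), an inflammation-induced family member, had the smallest change. It was at 105.0 and 105.2 TPM in the controls, at 86.3 and 98.4 TPM in the libraries labelled sgMETTL1.3 and at 89.8 and 98.3 TPM in those labelled sgMETTL1.6. Guide libraries were below both controls but overlapped between the guides. The log2 change was -0.17 ± 0.050 (SE, limma adjusted p = 0.00919), and the call was lost without either control library (adjusted p = 0.0541 and 0.0547), with no filter on low values (0.0766) and without the variance trend (0.0532). With sgMETTL1.3 and sgMETTL1.6 taken singly, its values were -0.19 (adjusted p = 0.0136) and -0.16 (adjusted p = 0.034), and they missed the threshold under 5 and 7 of 16 alternatives.

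The make-up of the C/EBP family transcripts shifted with these changes. CEBPA, CEBPB, CEBPD, CEBPE, CEBPG and DDIT3 together made 699 and 703 TPM in the controls and 501 to 576 TPM in the guide libraries. CEBPA was 33.9% and 35.5% of that sum in the controls and 55.6% to 56.3% in the guide libraries. CEBPB was 14.6% and 13.8% in the controls and 4.24% to 5.89% in the guide libraries, and DDIT3 was 18.3% and then 9.05% to 10.2%. CEBPG went from 18% and 17.1% to between 11% and 12.5%, while CEBPD went from 15% in each control library to between 16.1% and 18.9%. The ratio of CEBPA to CEBPB was 2.33 and 2.57 in the controls, 9.45 and 10.5 with sgMETTL1.3, and 13.2 and 12.8 with sgMETTL1.6. CEBPE, the family member of late granulocytes, was near 2 TPM in the controls and near 1 TPM with the guides (log2 change -0.51, adjusted p = 0.000857). At such a low level the value depends on the pseudocount, from -0.82 with 0.1 to -0.19 with 5.

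**Figure D3:**
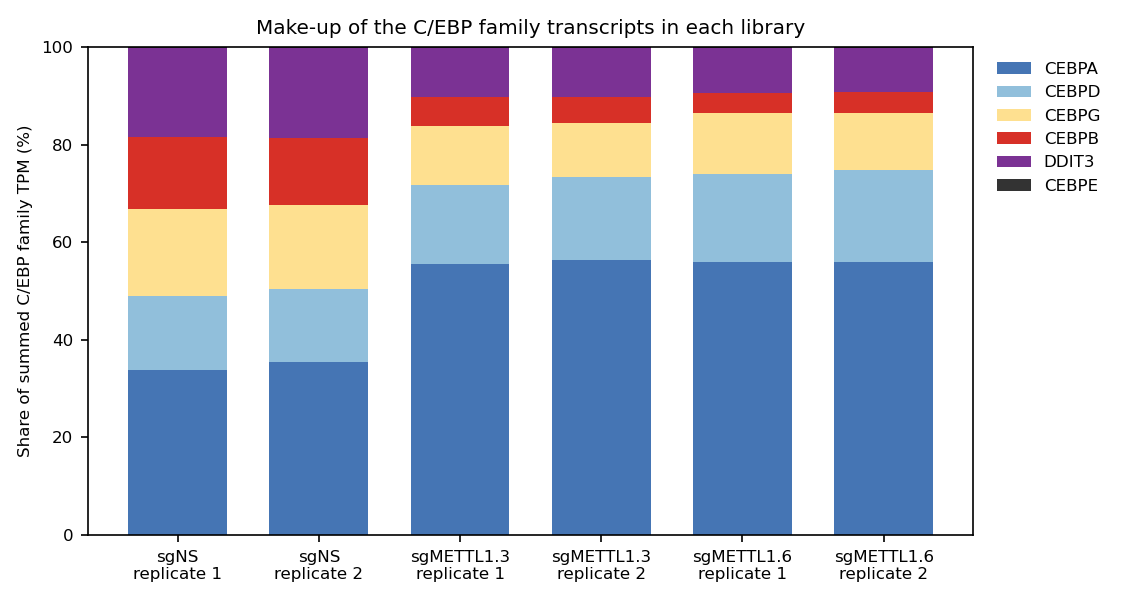
Share of the summed TPM of the C/EBP family (vertical axis, percent, 0 to 100) held by CEBPA, CEBPB, CEBPD, CEBPG, CEBPE and DDIT3 in each of the 6 libraries (horizontal axis, 1 stacked bar per library). The CEBPA share is 33.9% and 35.5% in the sgNS libraries and at least 55.6% in the 4 guide libraries; CEBPE is under 0.3% in each and is barely visible.

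Levels in TPM are scaled per transcript length and are ranked here across genes as deposited. That scaling does not correct for overlapping genes or for GC content, which was 41.3% for ATF6 and 70.0% for CEBPD. The order of close neighbours is therefore uncertain. In the controls the order from high to low was ATF4, TRIB3, ATF5, CEBPA, DDIT3, CEBPG, CEBPD, CEBPB, ATF6 and ATF3, and the 2 libraries of each neighbour did not overlap those of the next. In the libraries labelled sgMETTL1.3 it was ATF4, CEBPA, ATF5, CEBPD, TRIB3, CEBPG, DDIT3, ATF6, CEBPB and ATF3, and CEBPD overlapped TRIB3. In those labelled sgMETTL1.6 it was ATF4, CEBPA, ATF5, CEBPD, CEBPG, TRIB3, DDIT3, ATF6, CEBPB and ATF3, and ATF5 overlapped CEBPD. ATF4 stayed first and ATF3 last throughout, and CEBPA moved from the fourth place to the second. The 10 transcripts together took 1974 and 2011 TPM in the controls and 1094 to 1293 TPM in the guide libraries.

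The upstream sequences of the C/EBP genes that moved most apart are shown because CEBPB and CEBPG fell while CEBPA rose. Each is the part of the 250 bases before a RefSeq start that holds no annotated GENCODE 29 exon. The CEBPG stretch lies inside the gene, before a start downstream of its first, and those of CEBPB and CEBPA lie outside their genes. CEBPB and CEBPG each have another RefSeq start whose window is not shown and held no match to the composite ATF4-C/EBP element. That of CEBPB reaches the GENCODE 29 start of the gene. Capitals mark a match to this element. CEBPG (chr19:33373896-33374112, plus strand) holds 1, CEBPB (chr20:50190333-50190582, plus strand) and CEBPA (chr19:33302565-33302784, minus strand) hold none:
CEBPG: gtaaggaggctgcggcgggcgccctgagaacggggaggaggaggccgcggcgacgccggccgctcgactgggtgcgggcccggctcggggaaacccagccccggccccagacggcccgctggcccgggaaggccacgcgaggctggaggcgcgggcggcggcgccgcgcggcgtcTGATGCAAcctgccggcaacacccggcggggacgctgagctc
CEBPB: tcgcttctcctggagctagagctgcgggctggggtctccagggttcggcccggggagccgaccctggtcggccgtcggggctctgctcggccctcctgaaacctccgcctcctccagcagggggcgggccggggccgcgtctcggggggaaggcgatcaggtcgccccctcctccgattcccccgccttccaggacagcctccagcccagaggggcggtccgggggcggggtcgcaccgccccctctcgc
CEBPA: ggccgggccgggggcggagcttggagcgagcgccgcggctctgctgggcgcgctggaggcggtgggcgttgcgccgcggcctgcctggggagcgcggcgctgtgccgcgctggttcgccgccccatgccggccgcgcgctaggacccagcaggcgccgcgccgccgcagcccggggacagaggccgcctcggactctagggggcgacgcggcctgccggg

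The composite element was searched as TGATGNAA on both strands of the 250 bases before each RefSeq start. It was found in 2 of the 9 factors that had a promoter in the table (CEBPD had none), in ATF3 at 191 to 184 bases before a start and in CEBPG at 42 to 35. Those 9 factors had 18 windows, of which 2 held a match. The same letters were in 3.14% of all 35116 windows and in 2.18% of the 8564 tested genes with a window. They were also in 8 of 45 genes (17.8%) of a list of ATF4 and CHOP targets. The cAMP response element TGACGTCA was in none of the 9 (3.5% of tested genes) and the C/EBP letters TTGCNNAA in 1, ATF5 (8.68% of tested genes). The ER stress element was in none (0.187% of tested genes). No match of one motif overlapped a match of another in these windows. A match is a string of letters and not a bound site. Only these exact letters within 250 bases were searched, so a missing match does not show that a promoter lacks such an element. The stretches printed next read along the plus strand for ATF3, CEBPG and JDP2. Those of ASNS, CHAC1 and SLC1A5 read along the minus strand. The stretches around the composite match in the 2 factors and in 4 target genes are shown so that the core can be compared, ATF3 at chr1:212565205-212565234, CEBPG at chr19:33374060-33374089, ASNS at chr7:97872458-97872487, CHAC1 at chr15:40953251-40953280, SLC1A5 at chr19:46784893-46784922 and JDP2 at chr14:75427995-75428021, with the match in capitals:
ATF3: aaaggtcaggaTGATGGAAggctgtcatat
CEBPG: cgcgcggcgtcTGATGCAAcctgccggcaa
ASNS: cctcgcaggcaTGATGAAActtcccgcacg
CHAC1: cctggcaggagTGATGCAAcggcaggggag
SLC1A5: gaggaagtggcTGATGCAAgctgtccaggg
JDP2: atagccggggcTGATGCAAcccgtccc

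The 10 genes were also described by their structure, with no test. In their principal GENCODE 29 transcripts, 6 of the 10 had 2 or more AUG triplets before the coding start (60%), against 31.8% of 10605 tested genes. CEBPA, CEBPB and CEBPD have a single exon (30%, against 2.53%). The median leader was 338.5 bases, against 198 bases, and the median GC content of the transcript was 58.35%, against 48.7%.

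The listed target genes of ATF4 and CHOP were lower almost without exception. Of a list of 60 ATF4 and CHOP target genes, 58 were tested, 57 fell and 1 rose, with a median log2 change of -1.51 (limma). PSAT1, of serine synthesis, was at 657 and 640.5 TPM in the controls, 102 TPM in each library labelled sgMETTL1.3, and 93.0 and 90.1 TPM in those labelled sgMETTL1.6. ASNS, asparagine synthetase, was at 547 and 545 TPM, then 89.5 and 83.1 TPM, then 79.6 and 77.5 TPM. For both genes the guide libraries sat far below the controls, with log2 changes of -2.73 and -2.71. The serine enzyme PHGDH (-2.34), the gluconeogenic PCK2 (-2.64), the folate enzyme MTHFD2 (-1.94) and the tryptophanyl-tRNA synthetase WARS (-2.10) fell too. ALDH18A1, which starts proline synthesis, was the 1 gene that rose, by 0.31, with 66.3 and 66.4 TPM in the controls and 79.6 to 85.9 TPM in the guide libraries. Among all genes tested, 26.8% fell and the median was 0.02. The list was chosen with earlier results of these data known, so this contrast is a description and not independent support.

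Targets of ATF6 and XBP1, the other arms of the unfolded protein response, moved both ways. Of 30 listed, 29 were tested, 11 fell, 11 rose and 7 did not pass, with a median of 0.02. HERPUD1, of endoplasmic reticulum degradation, fell (-1.41), as did the chaperone HSPA13 (-1.24) and XBP1 (-0.85), the bZIP factor that IRE1 splices. XBP1 was at 535 and 540.4 TPM in the controls, 258 and 254 TPM with sgMETTL1.3, and 348 and 345 TPM with sgMETTL1.6. Its level was higher with sgMETTL1.6 than with sgMETTL1.3, by a log2 difference of 0.43 (adjusted p = 1.29e-06). MANF, a secreted stress protein, rose (0.72), from 94.9 and 100.5 TPM to between 153 and 166 TPM. The median of this list was below 0, between -0.05 and -0.005, with a filter at 5 TPM, with quantile normalization, without ribosomal protein genes and without sgNS replicate 2.

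**Figure D4:**
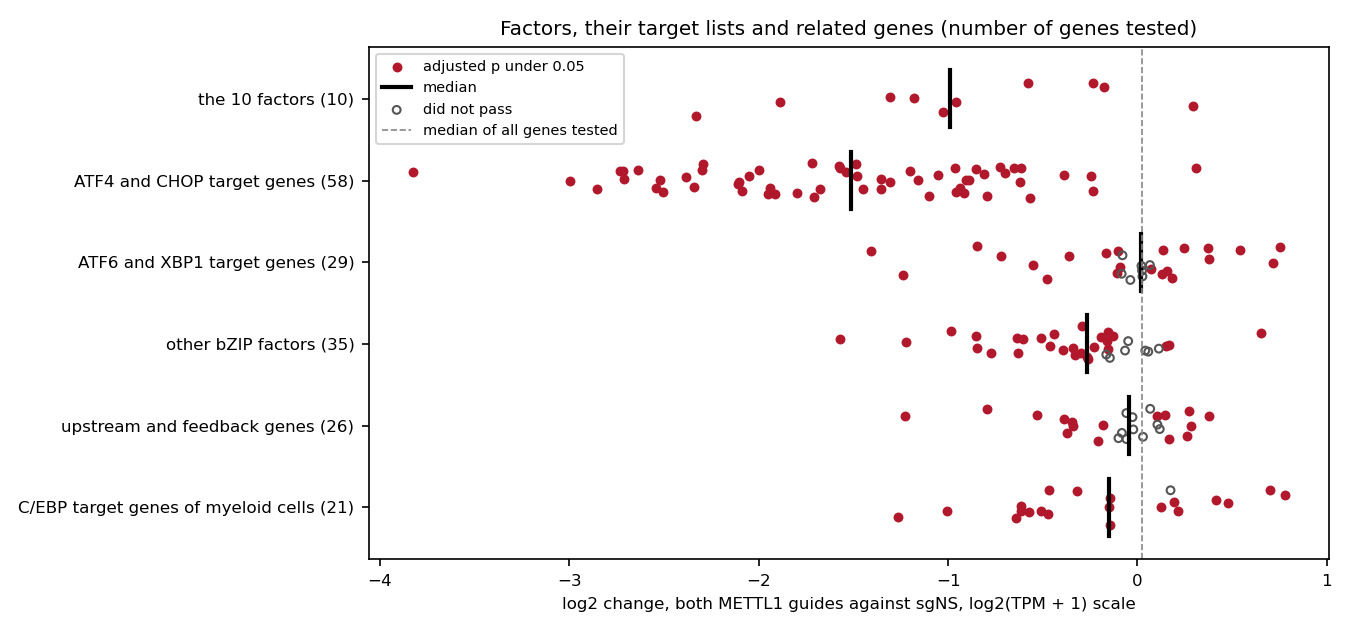
The log2 change over both METTL1 guides on the log2(TPM + 1) scale (horizontal axis) of the 10 factors and of the tested genes of 5 lists (rows, with the number of genes tested), 1 point per gene, filled where it passed the test, with a black bar at each median and a dashed line at the median of all genes tested. The ATF4 and CHOP targets lie almost wholly to the left, with a median of -1.51, and the ATF6 and XBP1 targets lie on both sides of 0, with a median of 0.02. All lists were chosen with earlier results of these data known.

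Other bZIP factors were mostly lower, by less. Of 44 listed, 42 were in the table and 35 tested, of which 25 fell, 3 rose and 7 did not pass, with a median log2 change of -0.27. JDP2, an AP-1 repressor that is also on the ATF4 and CHOP target list, was at 52.0 and 56.0 TPM in the controls and at 17.3 to 17.95 TPM in all 4 guide libraries (-1.57). NFE2L1, which controls proteasome genes and is on the same target list, fell by 0.85. FOS was at 932 and 933 TPM in the controls, 499 and 506 TPM with sgMETTL1.3 and 696 and 730 TPM with sgMETTL1.6 (-0.64). The 3 that rose, named after their values were seen, were BATF (0.65), FOSL1 (0.17) and MAFK (0.15), and 1 gene rose without sgNS replicate 1.

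Genes upstream of the factors, the eIF2 kinases, eIF2 subunits, sensors and phosphatase subunits, did not move as a block. All 26 listed were tested, 9 fell, 7 rose and 10 did not pass, with a median log2 change of -0.04. Of the 4 eIF2 kinases, the haem-regulated EIF2AK1 (0.17, adjusted p = 0.00052) and the amino acid sensor EIF2AK4, GCN2 (0.28, adjusted p = 0.000126), rose. The double-stranded RNA sensor EIF2AK2, PKR, had a value of 0.03 (adjusted p = 0.641) and EIF2AK3, PERK, one of -0.08 (adjusted p = 0.198). PPP1R15A, the stress-induced subunit that directs dephosphorylation of eIF2 and a target of ATF4 and CHOP, was at 134 and 140.3 TPM in the controls and at 75.0 to 82.0 TPM in the guide libraries (-0.79). The IRE1 gene ERN1 (-1.23) and the eIF2 subunit EIF2S2 (-0.53) fell, and the chaperone HSPA5 rose (0.38). TRIB1 (-0.34) and TRIB2 (-0.37), the relatives of TRIB3 that direct C/EBPα to degradation, also fell, TRIB2 not past the test without sgNS replicate 1 (adjusted p = 0.051). The value of TRIB2, which was under 3 TPM, ran from -0.55 with a pseudocount of 0.1 to -0.16 with one of 5. Neither kinase activity nor eIF2 phosphorylation was measured.

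Myeloid genes known as C/EBP targets went in both directions. Of 28 listed, 21 were tested, 13 fell, 7 rose and 1 did not pass, with a median log2 change of -0.15. CXCL8, an inflammatory chemokine, was at 161 and 158 TPM in the controls and at 59.8 to 74.3 TPM in the guide libraries (-1.26), and NAMPT, the NAD-synthesis enzyme, fell by 1.00. IL6R, an interleukin receptor, rose from 122 and 127 TPM to between 199 and 231 TPM (0.78). PRTN3, proteinase 3 of the primary granules, rose from 319 and 322 TPM to 600 and 634 TPM with sgMETTL1.3 and 427 and 453 TPM with sgMETTL1.6 (0.70).

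The guides were also compared with each other. Of the 10 factors, 5 were lower with sgMETTL1.6 than with sgMETTL1.3 and 5 did not pass; 23% of all genes passed this comparison, 15.8% lower and 7.23% higher. That background split, 1721 lower and 789 higher, turned on scaling, with 803 lower and 972 higher after quantile normalization, 781 and 1118 after median-ratio scaling, and 967 and 932 without ribosomal protein genes. The 5 factors passed lower under each of these. The log2 differences were -0.68 for TRIB3 (limma, adjusted p = 6.08e-07), -0.63 for ATF5 (adjusted p = 5.39e-07), -0.49 for CEBPB (adjusted p = 3.99e-05), -0.37 for ATF3 (adjusted p = 0.00145) and -0.27 for DDIT3 (adjusted p = 0.0012). Those not past the threshold were CEBPA at -0.12 (95% interval -0.21 to -0.03, adjusted p = 0.0546), ATF6 at -0.10 (-0.19 to -0.01, 0.111), ATF4 at -0.07 (-0.13 to -0.003, 0.115), CEBPG at -0.06 (-0.15 to 0.03, 0.323) and CEBPD at 0.03 (-0.10 to 0.15, 0.766). A value that missed the threshold does not show that the guides act alike on that gene. CEBPA passed without sgMETTL1.3 replicate 1 (adjusted p = 0.0288), without sgMETTL1.6 replicate 2 (0.0386) and with a filter at 5 TPM (0.0395).

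The genes with the most similar profiles were found by the Euclidean distance between log2(TPM + 1) values over the 6 libraries, each gene centred on its own mean, among all genes tested. For ATF4 they were DENND3 (0.0358), CD74 (0.047) and PLRG1 (0.0559). For DDIT3 they were PKD1 (0.113), AARS (0.117) and SLC7A1 (0.134), and PKD1 has near-identical copies in the genome, so its value is uncertain. For CEBPB they were CCPG1 (0.11), SLC38A1 (0.157) and KDM7A (0.213). CCPG1 was at 104 and 99.6 TPM in the controls, 33.2 and 30.9 TPM with sgMETTL1.3, and 21.7 and 21.5 TPM with sgMETTL1.6, nearly the TPM values of CEBPB itself. For ATF5 they were FLRT2 (0.196), SLC3A2 (0.24) and SMOX (0.247).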

How the data were processed

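Poly(A)-selected RNA of 6 Mono-Mac-6 libraries was sequenced from a stranded mRNA kit, per the labels' protocols. RSEM 1.2.31 and GRCh38 were used, per the submitters' processing notes. The aligner, annotation and strand setting were not given in the sources used here. What the authors deposited is TPM, which scales each library to the same total and keeps no depth, so the depth of a library cannot be read from it and counting intervals are left out. Value columns were matched to samples by the library names in the labels. Each name also carries the letters EV, which the labels do not explain.

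limma 3.58.1 (R 4.3.3) was run on log2(TPM + 1) with a variance trend and 1 model of 3 groups. Genes were kept at a mean level of 1 TPM or more, and p-values were adjusted by Benjamini-Hochberg over 10911 genes. Fold changes on that scale understate the change of low genes. The script was run on data simulated from its own fitted spread, which checks the code and not how well the model suits these data. The 10 factors and all lists were chosen with earlier results of these data known. Besides the 10 factors and METTL1, the text names, by p over both guides, the 6 lowest of the ATF4 and CHOP list with its exceptions and the 4 lowest of each other list, plus a few fixed relatives. Gene positions, exons and leaders came from GENCODE 29, and promoters from RefSeq (GRCh38.p14), which matched 9 of the 10. Alternatives were other pseudocounts, filters, scalings, no variance trend, a block and leaving out each library. Protein sequences were not analysed here.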

Additional observations from a re-analysis of the deposited data

Results flagged for a closer look

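The guides differed from each other, by limma's test of the difference itself, for 5 of the 10 factors. Of all genes tested, 23% passed this comparison, 15.8% lower with sgMETTL1.6 and 7.23% higher. The log2 difference of sgMETTL1.6 against sgMETTL1.3 was -0.68 for TRIB3, -0.63 for ATF5, -0.49 for CEBPB, -0.37 for ATF3 and -0.27 for DDIT3. In each case both libraries labelled sgMETTL1.6 were below both labelled sgMETTL1.3, which is not separate evidence for genes picked by that test. METTL1 mRNA was also lower with sgMETTL1.6 than with sgMETTL1.3, by a log2 difference of -0.57 (limma, adjusted p = 0.00018), and its part in these differences was not tested. With 2 libraries in a group, no library could be tested as standing apart from its group.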

How the results depend on the processing

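Against sgNS, the 30 results of the 10 factors had 480 alternative values: none changed direction, 464 kept their side of the threshold and 16 lost the call, all of them CEBPD. For CEBPD the value was -0.09 with sgMETTL1.3 without sgMETTL1.3 replicate 1 and -0.10 with sgMETTL1.6 without sgMETTL1.6 replicate 1. Between the guides, CEBPD ranged from -0.06602 (without sgMETTL1.3 replicate 1) to 0.12 when 1 library was left out and was also below 0 (-0.03744) without sgMETTL1.6 replicate 2. Over both guides, METTL1 ranged from -0.1157 to 0.02185 and EIF2AK2 from -0.03206 to 0.0907 when 1 library was left out, and both changed sign without sgNS replicate 1. EIF2AK2 was also at -0.0003346 without ribosomal protein genes. Neither passed where its sign changed. The count of genes past the test between the guides, 2510, was 1023 with no filter on low values (genes at 0 in every library left out), 1409 without the variance trend and 1214 to 2469 when 1 library was left out; the cause was not tested. Whether the replicate numbers pair the samples was not settled. Deviations of same-numbered libraries correlated at -0.01 between sgNS and sgMETTL1.3, at 0.36 between sgNS and sgMETTL1.6 and at 0.28 between the guides. With a replicate block, ATF4 (adjusted p = 0.0477) and CEBPA (adjusted p = 0.00504) passed between the guides, which made 7 of the 10 factors, 3615 genes passed there, and the block changed no other call of the 10 factors.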

Other observations

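A few relatives of ATF4 and ATF6 were looked at after their values were seen. CREB3L1, a membrane-bound bZIP factor of the secretory pathway, was at 8.17 and 8.98 TPM in the sgNS libraries, at 2.85 and 3.94 TPM in those labelled sgMETTL1.3 and at 2.49 and 3.29 TPM in those labelled sgMETTL1.6, a log2 change of -1.22 (limma, adjusted p = 7.43e-07). All 4 guide libraries lay below both controls. ATF6B, the relative of ATF6, was at 203 and 211 TPM in the controls and at 160.3 to 177 TPM in the guide libraries (log2 change -0.29, adjusted p = 1.32e-05). ATF1 and ATF2, which bind cAMP response elements, had log2 changes of -0.16 (adjusted p = 0.00567) and -0.23 (adjusted p = 0.00064). Not every relative fell. CREB3 (0.06, limma adjusted p = 0.387) and CREM (-0.05, adjusted p = 0.724) did not pass. Of the 35 other bZIP factors tested, 25 fell, 3 rose and 7 did not pass.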
